A study of Homo sapiens with 9 samples.

Results

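The 7 genes of the CIP and INK4 families of cyclin-dependent kinase (CDK) inhibitors were followed in RNA sequencing of RKO colorectal cancer cells in which the gene DIP2C had been targeted. They were taken by symbol, 3 from the CIP family (CDKN1A, CDKN1B and CDKN1C) and 4 from the INK4 family (CDKN2A, CDKN2B, CDKN2C and CDKN2D), out of 23619 genes in the files. Each of the 9 samples was a library of cells grown for 48 h, and the 3 groups were parental RKO (samples 1 and 2), DIP2C-/- clones with both alleles targeted (E3 and C10) and DIP2C+/- clones with 1 allele targeted (H9-A4, F6-A7, G1-A5, A6-C9 and A9-A12). Every clone was grown from a single cell after viral delivery of the targeting construct, which removed part of a coding exon, and excision of the selection cassette by Cre. The parental samples were not cloned, no clone with DIP2C left intact through the procedure was analysed here, and both DIP2C-/- clones had been made from 1 DIP2C+/- clone, so targeting, cloning and genotype cannot be told apart. The labels do not say whether the parental samples came from separate cultures, and p-values then measure only the spread between these samples.

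CDK inhibitors hold back the kinases that drive cells from G1 into S phase. The CIP proteins p21 (CDKN1A), p27 (CDKN1B) and p57 (CDKN1C) bind complexes of cyclins with several CDKs, CDK2 among them. The INK4 proteins p16 (CDKN2A), p15 (CDKN2B), p18 (CDKN2C) and p19 (CDKN2D) bind CDK4 and CDK6 and keep them from D-type cyclins, so that the retinoblastoma protein RB1 stays able to hold E2F factors. CDKN2A and CDKN2B are neighbours on 9p21, a region often deleted in tumours, and CDKN2A also encodes p14ARF, which binds MDM2. RKO is a colorectal carcinoma line with microsatellite instability.

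In 6 of the 7 clones, CDKN1A and CDKN2A were higher than in both parental samples, and CDKN1B, CDKN1C and CDKN2C were lower. Clone H9-A4 had none of the increases. Of the neighbours CDKN2A and CDKN2B, CDKN2A was about 13 times the parental mean in the 6 clones and CDKN2B stayed near its parental level, whereas in H9-A4 both were far below it. Because the largest contrast was within 9p21, the promoter sequence of its 3 start sites is shown with that of CDKN1A, the most abundant member. Each is the 250 bases before a RefSeq start, from the GRCh38.p14 table, which held 9 such starts for 6 of the members, and each was matched to a single place in GRCh37, the build of the files. Capitals mark the GC box, GGGCGG or its complement on the other strand CCGCCC.
CDKN1A, chr6:36646241-36646490, plus strand: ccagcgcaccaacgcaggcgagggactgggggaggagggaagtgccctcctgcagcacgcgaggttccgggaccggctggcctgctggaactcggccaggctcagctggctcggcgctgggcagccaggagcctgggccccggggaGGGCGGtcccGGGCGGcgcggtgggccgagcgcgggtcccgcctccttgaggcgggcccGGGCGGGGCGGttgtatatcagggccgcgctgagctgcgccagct
CDKN2A at the p14ARF start, chr9:21995324-21995573, minus strand: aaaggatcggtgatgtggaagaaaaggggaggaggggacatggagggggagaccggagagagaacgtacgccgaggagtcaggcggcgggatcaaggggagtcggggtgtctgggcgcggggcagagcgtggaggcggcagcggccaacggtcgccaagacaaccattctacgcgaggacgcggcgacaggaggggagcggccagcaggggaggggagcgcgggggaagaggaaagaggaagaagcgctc
CDKN2A at the p16INK4a start, chr9:21974857-21975106, minus strand: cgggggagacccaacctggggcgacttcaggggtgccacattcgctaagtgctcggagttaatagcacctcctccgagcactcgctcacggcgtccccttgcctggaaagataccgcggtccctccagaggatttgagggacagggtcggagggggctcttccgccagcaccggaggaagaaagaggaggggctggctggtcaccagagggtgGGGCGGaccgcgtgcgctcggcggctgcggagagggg
CDKN2B, chr9:22009305-22009554, minus strand: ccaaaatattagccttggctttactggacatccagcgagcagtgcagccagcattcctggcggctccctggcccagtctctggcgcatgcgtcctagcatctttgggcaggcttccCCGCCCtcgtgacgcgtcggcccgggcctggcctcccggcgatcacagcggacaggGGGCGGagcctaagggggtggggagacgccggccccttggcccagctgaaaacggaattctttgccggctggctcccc
The CDKN1A window held 4 GC boxes, which overlap in part, the CDKN2B window 2, the p16INK4a window 1 and the p14ARF window 0, and a GC box stood in 42.6% of the 35116 windows of this length in the table. CG pairs numbered 27 in the CDKN1A window, 24 at p14ARF, 20 at p16INK4a and 18 at CDKN2B, against a median of 11 over all windows. None of the 9 member windows held TATAAA on either strand, which 10.7% of all windows did. The counts of the files are per gene, so they do not tell the p14ARF start from the p16INK4a start.

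The library totals were 14772593 to 21486483 estimated counts, and 3 counts, the least taken as detectable, were 0.14 to 0.203 CPM (counts per 1e6 counts of the library). DIP2C was 60.9 and 70.8 CPM in the parental samples, 17.4 and 22.8 CPM in the DIP2C-/- clones E3 and C10, and 33.6 to 46.9 CPM in 4 of the DIP2C+/- clones. In the DIP2C+/- clone H9-A4 it was 56.2 CPM, below both parental samples and above every other clone. This clone stood apart in many genes: the fitted biological coefficient of variation was 0.298 with all 9 samples and 0.242 without H9-A4, and the genes that differed between all clones and parental cells rose from 28 to 1378. Whether this library carries the targeted allele as labelled cannot be read from gene counts, and in CDKN1A, CDKN1B, CDKN1C, CDKN2A and CDKN2C its level was nearer to the parental samples than to any other clone. Fits are therefore given with all 9 samples and without H9-A4, a choice made with the values known. Of the epithelial markers, KRT18 was 121 to 293 CPM, CDX2 15.6 to 19.8 CPM and KRT8 7.01 to 21.4 CPM. CDH1, the E-cadherin that defines epithelial junctions, was at most 0.697 CPM. VIL1 was at most 0.935 CPM, CDX1 at most 0.268 CPM and KRT19 at most 0.226 CPM. EPCAM was 3.79 CPM in H9-A4 and at most 1.05 CPM in the other samples. The summed fibroblast markers were 4.3 to 8.17 CPM, the leukocyte markers 1.38 to 2.59 CPM and the endothelial markers 1.86 to 4.75 CPM in the 9 samples.

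CDKN1A, which encodes p21, an inhibitor known for its induction by DNA damage, was the highest of the 7 genes. It lies on chromosome 6 (chr6:36644237-36655114, plus strand, 3 exons in its canonical transcript). It was 96.0 and 94.1 CPM in the parental samples, 223 CPM in E3 and 277 CPM in C10. Among the DIP2C+/- clones it was 265 CPM in F6-A7, 366 CPM in A9-A12, 414 CPM in G1-A5 and 333 CPM in A6-C9, and 60.1 CPM in H9-A4. The 6 clones other than H9-A4 lay above both parental samples with no overlap, and H9-A4 lay below both. In bulk RNA, a higher level in every cell and a larger share of cells with CDKN1A cannot be told apart. With all 9 samples the mean of all clones was 2.90-fold the parental mean (log2 fold change 1.54, SE 0.54), and did not pass the edgeR quasi-likelihood test after Benjamini-Hochberg adjustment over all genes (adjusted p = 0.318). Without H9-A4 it was 3.25-fold (log2 fold change 1.70, SE 0.18, adjusted p = 0.000193), and CDKN1A was called with each of the 8 other samples left out in turn as well. The 2 DIP2C-/- clones (2.63-fold) and the 4 DIP2C+/- clones (3.62-fold) both passed the test without H9-A4, and the DIP2C+/- clones were 1.38 times the DIP2C-/- clones, a difference that did not pass it (log2 difference 0.46, SE 0.18, unadjusted p = 0.0233, edgeR adjusted p = 0.679). With all 9 samples this difference was 0.20 (SE 0.52, edgeR adjusted p = 0.977).

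CDKN1B, which encodes p27, an inhibitor known to hold resting cells out of the cycle, went the other way. It lies on chromosome 12 (chr12:12838432-12875303, plus strand). It was 34.8 and 33.9 CPM in the parental samples and 17.6 and 19.7 CPM in the DIP2C-/- clones. The DIP2C+/- clones F6-A7, A9-A12, G1-A5 and A6-C9 had 20.2, 22.4, 22.1 and 17.8 CPM, and H9-A4 had 31.5 CPM. All 7 clones were below both parental samples, H9-A4 by the least. The log2 fold change of all clones was -0.68 (SE 0.20) with all 9 samples and did not pass (edgeR adjusted p = 0.273). Without H9-A4 it was -0.79 (SE 0.15, edgeR adjusted p = 0.00732), or 1.72-fold lower.

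CDKN1C, the imprinted gene of p57, was the lowest CIP gene and had the largest relative decrease of the 7. It lies on chromosome 11 (chr11:2904443-2907005, minus strand). It was 6.55 and 7.31 CPM in the parental samples, which rest on 154 and 126 reads, and 1.29 and 1.45 CPM in the DIP2C-/- clones, which rest on 27 reads each. The DIP2C+/- clones had 2.31 CPM in F6-A7, 1.18 CPM in A9-A12, 1.38 CPM in G1-A5, 1.58 CPM in A6-C9 and 5.09 CPM in H9-A4. All 7 clones were below both parental samples, and H9-A4 was nearer to the parental samples than to any other clone. The log2 fold change of all clones was -1.80 (SE 0.47, edgeR adjusted p = 0.247) with all 9 samples and -2.18 (SE 0.33, edgeR adjusted p = 0.00223) without H9-A4, which is 4.53-fold lower.

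**Figure D1:**
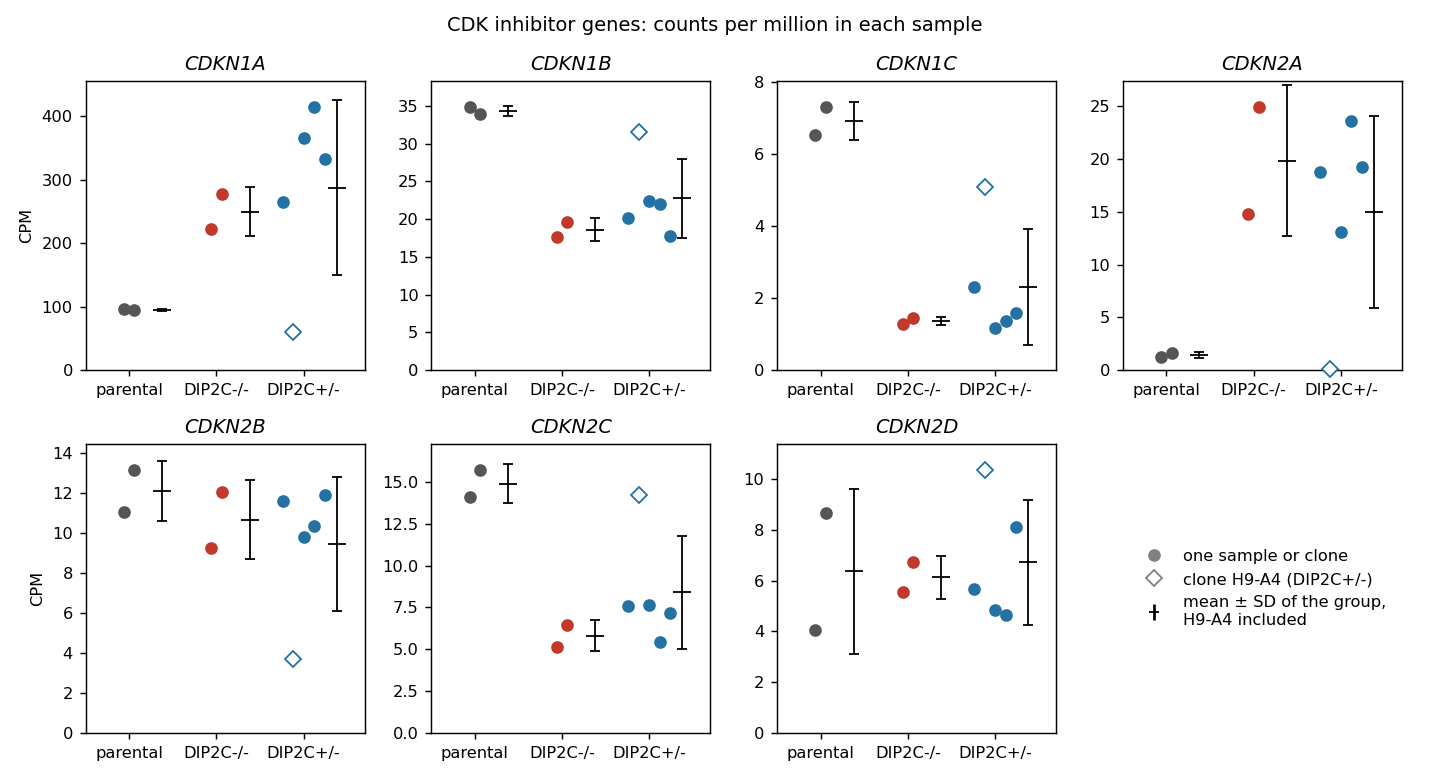
Each panel plots 1 gene in CPM on a linear axis from 0, by genotype; points are samples or clones, the open diamond is the DIP2C+/- clone H9-A4, and bars are the mean ± SD of the group with H9-A4 included (parental n = 2, DIP2C-/- n = 2, DIP2C+/- n = 5). CDKN1A and CDKN2A are above both parental samples in every clone except H9-A4, CDKN1B, CDKN1C and CDKN2C are lower in the same 6 clones, and CDKN2B and CDKN2D overlap the parental samples.

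CDKN2A had the largest relative change of the 7 genes. It lies on the minus strand of chromosome 9 (chr9:21967751-21995300), and its counts cover both p16INK4a and p14ARF. The parental samples had 1.21 and 1.67 CPM, which rest on 28 and 29 reads. The DIP2C-/- clones had 14.8 CPM in E3 and 24.9 CPM in C10, and the DIP2C+/- clones had 18.7 CPM in F6-A7, 13.1 CPM in A9-A12, 23.6 CPM in G1-A5 and 19.2 CPM in A6-C9. The lowest of these 6 clones was thus far above the higher parental sample, and the genotypes overlapped. In H9-A4 CDKN2A was 0.113 CPM, which rests on 3 reads and is below the detectable level of that library (0.171 CPM). All clones together were 11.2-fold the parental mean with all 9 samples, and the difference did not pass the test (log2 fold change 3.49, SE 1.18, edgeR adjusted p = 0.308). Without H9-A4 the same contrast was 13.2-fold (log2 fold change 3.72, SE 0.35, edgeR adjusted p = 7.91e-05), and it was called in all 8 fits that left out a further sample. The 2 genotypes did not differ in CDKN2A beyond their spread (log2 difference -0.09, SE 0.27, edgeR adjusted p = 0.96 without H9-A4, and -0.41, SE 0.92, edgeR adjusted p = 0.972 with all 9 samples). Part of the CDKN2A count may not be assignable with certainty. In the GENCODE gene models used here for positions, 593 exon bases (15.3%) overlap the antisense gene CDKN2B-AS1. The paper names another source, iGenomes, for the gene coordinates, and whether the genes overlap in those models was not tested. The counting is not stated to use strand. Of the 929 stretches of 50 bases in the canonical CDKN2A transcript, 31 also stand in that of CDKN2B. CDKN2B-AS1 was 1.58 to 2.61 CPM in the 6 clones and 2.4 and 3.74 CPM in the parental samples, and its part in the CDKN2A counts was not tested.

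CDKN2B, which encodes p15, the INK4 protein known for its induction by TGF-beta, lies 7.6 kb from CDKN2A on the same strand (chr9:22002902-22009304). It was 11.1 and 13.1 CPM in the parental samples and 9.27 and 12.1 CPM in the DIP2C-/- clones. The DIP2C+/- clones F6-A7, A9-A12, G1-A5 and A6-C9 had 11.6, 9.81, 10.3 and 11.9 CPM. These 6 clones overlapped the parental samples, 3 of them lying below both. H9-A4, at 3.68 CPM, was below all 8 other samples. The log2 fold change of all clones was -0.30 (SE 0.36, edgeR adjusted p = 0.764) with all 9 samples and -0.16 (SE 0.20, edgeR adjusted p = 0.724) without H9-A4.

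CDKN2C, which encodes p18, lies on chromosome 1 (chr1:51426417-51440306, plus strand) and fell in the clones where CDKN2A rose. It was 14.1 and 15.7 CPM in the parental samples and 5.15 and 6.47 CPM in the DIP2C-/- clones. The DIP2C+/- clones F6-A7, A9-A12, G1-A5 and A6-C9 had 7.61, 7.67, 5.42 and 7.14 CPM, and H9-A4 had 14.2 CPM. The 6 clones were below both parental samples and H9-A4 lay between them. The log2 fold change of all clones was -0.98 (SE 0.31, edgeR adjusted p = 0.294) with all 9 samples and -1.18 (SE 0.22, edgeR adjusted p = 0.00664) without H9-A4, which is 2.27-fold lower.

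CDKN2D, which encodes p19, lies on chromosome 19 (chr19:10677136-10679735, minus strand) and was not called in any contrast. It was 4.07 and 8.66 CPM in the parental samples, which spanned all 6 clones (4.63 to 8.11 CPM), and 10.4 CPM in H9-A4, the highest of the 9 samples. The log2 fold change of all clones was 0.04 (SE 0.39) with all 9 samples and -0.11 (SE 0.34, edgeR adjusted p = 0.904) without H9-A4. The parental spread of this gene was 51.0% of its mean, the widest of the 7.

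Counted over the 7 genes, all of which passed the filter on low counts, 0 were called with all 9 samples in any of the 4 contrasts, and 5 had an unadjusted p under 0.05 in each contrast with parental cells. Of the 15532 genes tested, 0.00644% were called between DIP2C-/- and parental cells, 0.0966% between DIP2C+/- and parental cells, 0.18% between all clones and parental cells and 0% between DIP2C+/- and DIP2C-/-. At an unadjusted p under 0.05 these shares were 12.7%, 11.6%, 13.4% and 5.57%, and 0 of the 7 genes reached it between the genotypes. DESeq2's Wald test on all 9 samples called 2, 0, 1 and 0 members in these contrasts. Without H9-A4, 5 of the 7 were called in each contrast with parental cells, CDKN1A and CDKN2A higher and CDKN1B, CDKN1C and CDKN2C lower. The background without H9-A4, over 15390 genes, was 2.32% higher and 2.44% lower for DIP2C-/-, 4.37% higher and 3.58% lower for DIP2C+/-, and 4.48% higher and 4.47% lower for all clones. Between DIP2C+/- and DIP2C-/- 0 members were called without H9-A4, against 0% of all genes, and 1 (CDKN1A) had an unadjusted p under 0.05. By overlap alone, 2 members had the 6 clones above both parental samples, as did 12.4% of all genes tested, and 3 had them below both, as did 11.5%. With H9-A4 counted, 0 members had all 7 clones above both parental samples (5.43% of all genes) and 2 had all 7 below (5.54%). The calls rested on the parental pair: with H9-A4 and parental sample 1, or H9-A4 and parental sample 2, left out, CDKN1B and CDKN2C were no longer called in any contrast and CDKN1C only in that of all clones, while CDKN1A and CDKN2A were called in each.

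**Figure D2:**
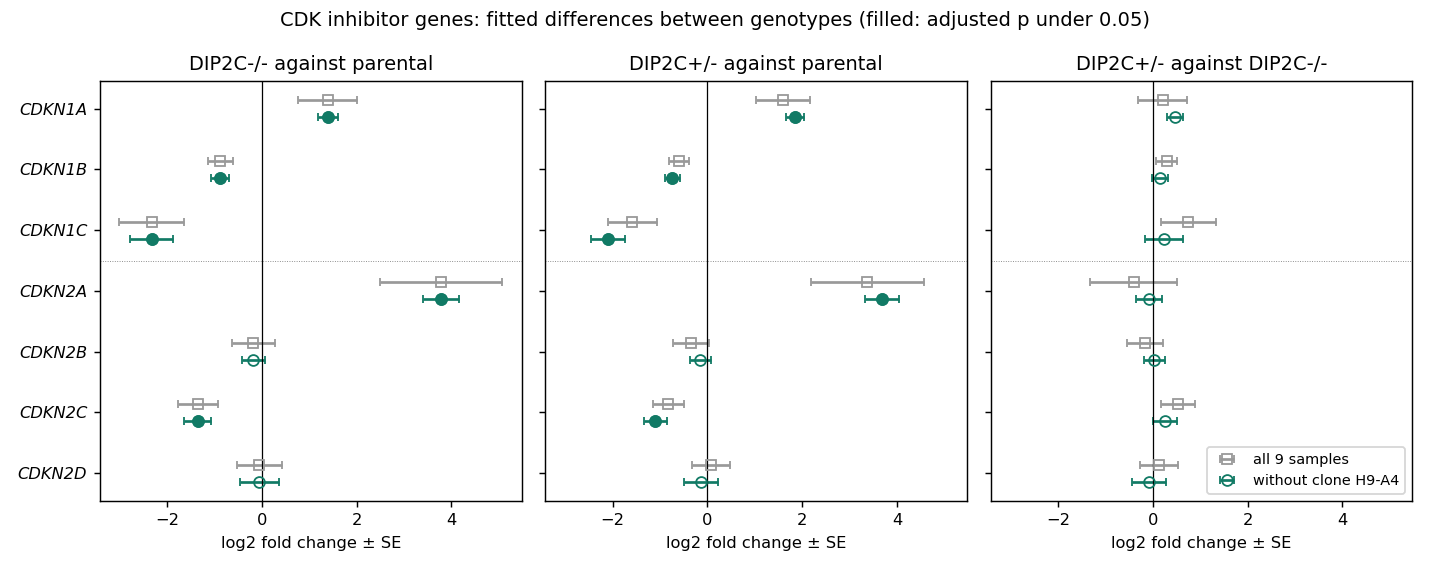
Fitted log2 fold changes with standard errors of the 7 genes in 3 contrasts, with all 9 samples (squares) and without H9-A4 (circles); filled symbols passed an adjusted p of 0.05. CDKN2A and CDKN1A lie to the right and CDKN1C, CDKN2C and CDKN1B to the left in both contrasts with parental cells, their errors shrink without H9-A4, and no symbol is filled in the contrast of the genotypes.

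The families were compared per kilobase of canonical transcript, since CPM grows with transcript length. In parental cells the order of mean levels was CDKN1A (44.9 CPM per kb), CDKN2C (15.0), CDKN1B (14.3), CDKN2D (4.47), CDKN1C (3.91), CDKN2B (3.14) and CDKN2A (1.47). CDKN2C and CDKN1B overlapped between the parental samples, and so did CDKN2D with both CDKN1C and CDKN2B. In the 6 clones the order was CDKN1A (148 CPM per kb), CDKN2A (19.5), CDKN1B (8.27), CDKN2C (6.61), CDKN2D (4.15), CDKN2B (2.81) and CDKN1C (0.864), and CDKN2A had moved from the last place to the second. CDKN1B, CDKN2C and CDKN2D each overlapped the next gene in that order except CDKN2D, whose 6 values were all above those of CDKN2B. Summed over its 3 genes, the CIP family was 62.7 and 63.5 CPM per kb in the parental samples, 113 to 205 in the 6 clones and 44.3 in H9-A4. The INK4 family was 21.1 and 27.0 CPM per kb in the parental samples, 26.6 to 39.8 in the 6 clones and 22.6 in H9-A4, so its sum overlapped that of the parental samples where the CIP sum did not. CDKN1A made up 71.0% and 71.4% of the CIP sum in the parental samples and 92.8% to 95.2% in the 6 clones. CDKN2A made up 5.86% and 6.33% of the INK4 sum in the parental samples, 49.6% to 68.0% in the 6 clones and 0.512% in H9-A4. In both families a single gene rose: without H9-A4, 1 CIP gene was called higher and 2 lower of 3 (median log2 fold change of all clones -0.79), and 1 INK4 gene higher and 1 lower of 4 (median -0.13), beside a median of 0.01 over all genes tested.

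**Figure D3:**
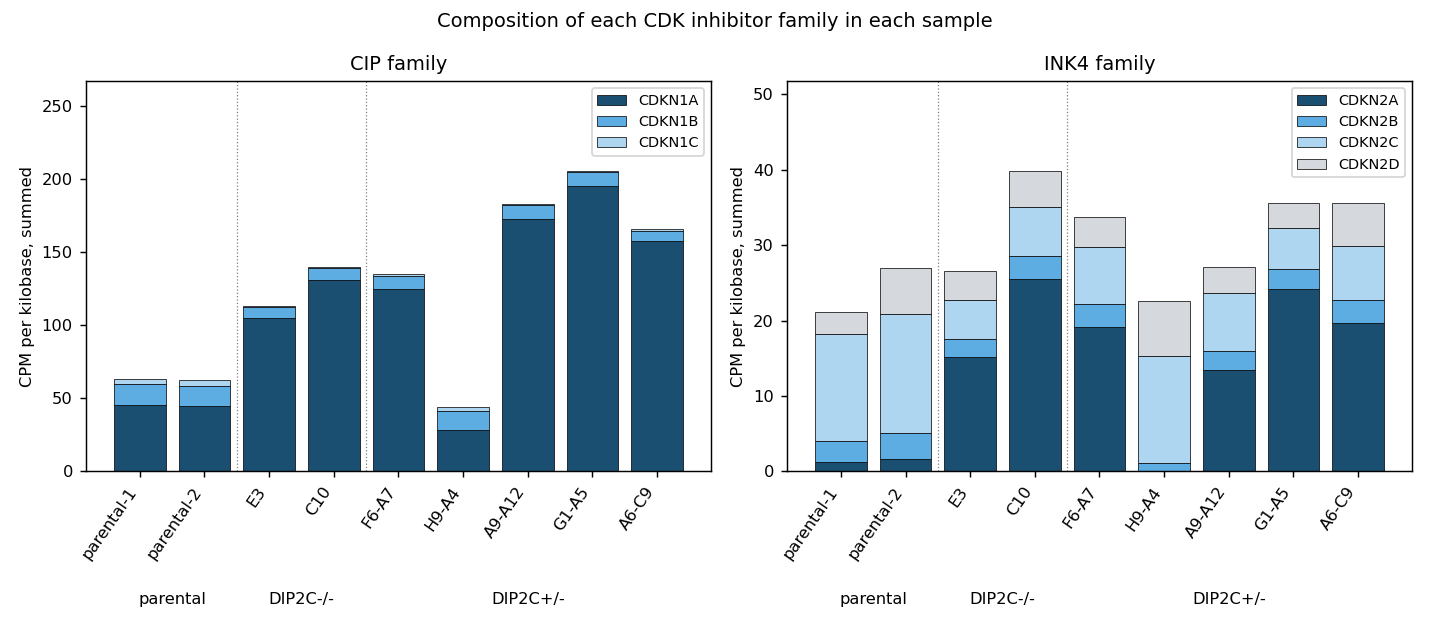
Stacked bars give the summed level of the CIP genes (left) and INK4 genes (right) in each sample, in CPM per kilobase of canonical transcript, on separate axes from 0. CDKN1A fills most of every CIP bar, and CDKN2A fills 49.6% to 68.0% of the INK4 bar in 6 clones and is barely present in the parental samples and H9-A4, where CDKN2C is the largest part.

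Within a library, CDKN2A per CDKN2B does not depend on depth or normalization. The ratio of their CPM was 0.109 and 0.127 in the parental samples, 1.60 and 2.06 in E3 and C10, and 1.34 to 2.29 in 4 DIP2C+/- clones. In H9-A4 it was 0.0308. H9-A4 was low at CDKN2A, CDKN2B-AS1 and CDKN2B and not at MTAP, the nearest tested gene on the telomeric side. On the other side the nearest listed gene, DMRTA1, was too low to read (0.170 CPM in H9-A4, 0.165 and 0 CPM in the parental samples). The nearest tested gene there, TUSC1, lies 3668 kb from CDKN2B. It was 14.3 CPM in H9-A4 against a parental mean of 15.4 CPM. Where the low values end between CDKN2B and TUSC1 is not known. Per library, CDKN2A in H9-A4 was 0.0853 times the 2 parental libraries (exact 95% interval 0.0171 to 0.262, 3 reads against 57), CDKN2B 0.307 times (0.243 to 0.384, 92 reads against 486) and CDKN2B-AS1 0.226 times (0.130 to 0.372, 18 reads against 129). These intervals cover counting error only. At least 2-fold below the parental mean in H9-A4, in log2 CPM (prior count 2), were CDKN2A (-2.78), CDKN2B (-1.68) and CDKN2B-AS1 (-1.88), and 4.18% of all genes tested were. MTAP, the next gene towards the telomere and an enzyme of methionine salvage, was 247 CPM in H9-A4 against a parental mean of 209 CPM.

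Of 12 listed neighbours of CDKN2A and CDKN2B, 6 passed the filter, and without H9-A4 1 was called higher and 1 lower between all clones and parental cells. Over all genes tested, 4.48% were called higher and 4.47% lower in that fit. MTAP was 199 and 218 CPM in the parental samples and 280 to 424 CPM in the 6 clones (log2 fold change 0.68, SE 0.16, edgeR adjusted p = 0.0253). MLLT3, a chromatin reader of the elongation machinery, was 33.8 and 37.1 CPM in the parental samples and 14.7 to 18.9 CPM in the 6 clones (log2 fold change -1.04, SE 0.15, edgeR adjusted p = 0.00174). FOCAD (47.5 to 59.4 CPM in the 6 clones), KLHL9 (49.0 to 79.6 CPM), CDKN2B-AS1 and MIR31HG (0.322 to 1.35 CPM) were not called. The other 6, C9orf53, DMRTA1, IFNE, IFNA1, IFNB1 and ELAVL2, were at most 0.867 CPM in any sample. With all 9 samples 0 of the 6 tested neighbours were called.

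Of the 10 nearest tested genes on either side of the other 5 members, AP1M2 was the 1 called between all clones and parental cells without H9-A4. Over all genes tested, 4.48% were called higher and 4.47% lower in that fit. With all 9 samples 0 of the 10 were called, beside 0.18% of all genes. Beside CDKN1A, SRSF3 was 315 to 515 CPM in the 6 clones against a parental mean of 446 CPM, and RAB44 was at most 1.28 CPM (edgeR adjusted p = 0.0936 without H9-A4). Beside CDKN1B, CREBL2 was 24.3 to 30.0 CPM against 26.0 CPM and APOLD1 1.22 to 2.41 CPM against 1.13 CPM. Beside CDKN1C, KCNQ1 was 5.91 to 19.7 CPM against 11.2 CPM and SLC22A18AS 0.483 to 2.24 CPM against 0.265 CPM, and neither was called. Beside CDKN2C, FAF1 was 81.2 to 91.1 CPM against 95.8 CPM and RNF11 35.9 to 57.7 CPM against 49.99 CPM. Beside CDKN2D, KRI1 was not called, and AP1M2, a subunit of an epithelial clathrin adaptor, was 2.28 to 5.31 CPM against 9.37 CPM (log2 fold change -1.34, SE 0.29, edgeR adjusted p = 0.0161 without H9-A4, and -1.13, SE 0.34, edgeR adjusted p = 0.278 with all 9 samples).

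The pathway lists are read beside the shares of all genes called between all clones and parental cells without H9-A4, 4.48% higher and 4.47% lower, and no test compared the lists. Among 11 CDKs and cyclins, 0 were called higher and 2 lower without H9-A4 (median log2 fold change of all clones -0.21). CDK6, a target of the INK4 proteins, was 367 and 339 CPM in the parental samples and 134 to 185 CPM in the 6 clones (log2 fold change -1.15, SE 0.13, edgeR adjusted p = 0.000368), with 242 CPM in H9-A4. CCNA2, the cyclin A of S phase, was 164 and 140 CPM in the parental samples and 70.0 to 128 CPM in the 6 clones (log2 fold change -0.75, SE 0.20, edgeR adjusted p = 0.0378). CDK4, the other INK4 target, named after its values were seen, was 264 and 262 CPM in the parental samples and 321 to 372 CPM in the 6 clones, and was not called (edgeR adjusted p = 0.0681). Among 13 RB and E2F genes 0 were called higher and 2 lower (median -0.03). E2F2, an activating E2F, fell with a log2 fold change of -0.77 (SE 0.15, edgeR adjusted p = 0.00855), and E2F8, a repressing E2F, with -0.78 (SE 0.20, edgeR adjusted p = 0.0385). Among 13 proliferation genes 0 were called higher and 2 lower (median -0.25): TOP2A, the topoisomerase of dividing cells, was 438 and 422 CPM in the parental samples and 175 to 229 CPM in the 6 clones (log2 fold change -1.07, SE 0.11, edgeR adjusted p = 0.000188), and AURKA, a mitotic kinase, had a log2 fold change of -0.60 (SE 0.12, edgeR adjusted p = 0.0128). With all 9 samples 0 genes of these 3 lists were called.

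Of 24 known regulators of the inhibitors, 23 were tested, and without H9-A4 1 was called higher and 5 lower between all clones and parental cells (median log2 fold change -0.10), beside 4.48% higher and 4.47% lower of all genes. MYC, known to repress CDKN1A and CDKN2B with the factor encoded by ZBTB17, was the gene called higher, with 713 and 753 CPM in the parental samples and 998 to 1343 CPM in the 6 clones (log2 fold change 0.69, SE 0.13, edgeR adjusted p = 0.00748), and 999.6 CPM in H9-A4. CKS1B and SKP2 encode parts of the ubiquitin ligase that marks p27 for degradation, and both were called lower, SKP2 being named here after its values were seen and CKS1B having 104 and 94.2 CPM in the parental samples and 47.5 to 68.3 CPM in the 6 clones (log2 fold change -0.87, SE 0.15, edgeR adjusted p = 0.00376). ID1, an inhibitor of transcription factors that bind CDKN2A, was 29.6 and 36.2 CPM in the parental samples, 2.68 to 21.6 CPM in the 6 clones and 48.9 CPM in H9-A4 (log2 fold change -2.01, SE 0.54, edgeR adjusted p = 0.0408). TBX3, a repressor of CDKN2A at p14ARF, was 26.3 and 31.2 CPM in the parental samples and 10.9 to 19.0 CPM in the 6 clones (log2 fold change -0.87, SE 0.21, edgeR adjusted p = 0.0238). EZH2, the methyltransferase of the Polycomb complex known to act on CDKN2A, was the other gene called lower, and it too is named after its values were seen. MDM2, the ubiquitin ligase that p14ARF binds, was not called and is named after its values were seen: it was 275 and 279 CPM in the parental samples and 388 to 896 CPM in the 6 clones (edgeR adjusted p = 0.062). With all 9 samples 0 of the 23 were called.

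The genes whose log2 CPM followed each member most closely over the 9 samples, out of 12686 with a mean of at least 1 CPM, are given as a description. For CDKN1A, CDKN1B, CDKN1C, CDKN2A and CDKN2C the samples share a split of 6 clones against the parental samples and H9-A4, and for CDKN2B a split of H9-A4 against the other 8 samples. For CDKN1A they were MR1 (Pearson r 0.993), TM4SF19 (0.993) and CA13 (0.989). For CDKN2A they were ANKRD50 (0.993), DGKI (0.991) and EDEM1 (0.990), and DGKI, a diacylglycerol kinase, was 4.41 CPM in parental cells, 31.8 to 39.0 CPM in the 6 clones and 0.622 CPM in H9-A4. For CDKN2B they were DDX19A (0.986), ZNF416 (0.971) and LOC100134868 (0.960), of which DDX19A was 87.2 CPM in parental cells, 77.7 to 89.9 CPM in the 6 clones and 47.0 CPM in H9-A4. For the members that fell they were ESPL1, TCTN2 and TUBA4A for CDKN1B (0.984 to 0.987), RAB20, RASGRP2 and LOC730101 for CDKN1C (0.976 to 0.981), and PLEKHA6, KHSRP and KIFC3 for CDKN2C (0.978 to 0.983). RAB20, a small GTPase, was 49.99 CPM in parental cells, 5.42 to 11.3 CPM in the 6 clones and 44.5 CPM in H9-A4. CDKN2D had the least close partners, RNF126 (0.918), RAB26 (0.916) and CKB (0.894).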

How the data were processed

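RNA of 9 RKO samples was sequenced on the Ion Proton system by the authors. Per the labels and the study's methods, reads were aligned to hg19 (GRCh37) with TopHat2 2.0.4 and quantified with Cufflinks, version 2.2.1 in the submitters' processing notes and another version in the study's methods. The deposited files hold estimated counts per gene for 23619 symbols, and the step from Cufflinks to these counts is not given in the sources used here. They were mostly whole multiples of a step per library (0.711 to 1.11; 97.7% to 98.2% of low values, tolerance 0.01), which is what scaling each library by a constant would give. The design had assumed whole counts, so the values were rounded, and fits were repeated on values divided by the step (17134472 to 24863895 reads). Library totals were 14772593 to 21486483.

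Genes were kept by filterByExpr (15532, or 15390 without H9-A4), normalised by TMM (factors 0.945 to 1.05) and tested with the quasi-likelihood F test of edgeR 4.0.16 in R 4.3.3, with 1 coefficient per genotype, all 9 samples in the fit and Benjamini-Hochberg adjustment over all genes tested (threshold 0.05). All clones are the mean of the 7, or 6, clones. The SE was taken as the absolute log2 fold change over the root of F. DESeq2 1.42.0 was an alternative. CPM are from rounded counts with TMM factors. Exact intervals are 95% Clopper-Pearson intervals on reads from the step and cover counting error only. Gene positions and lengths are from GENCODE 44 mapped to GRCh37 and promoters from RefSeq (GRCh38.p14).

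Pairs of samples of a group differed by more than sampling noise (chi-square per degree of freedom 20.7 to 137), so no pair was taken as a library deposited more than once, which does not show that they came from separate cultures. The labels give no batch. On simulated counts with 200 genes changed by a log2 of 2 at the spread of the fit (a coefficient of variation of 0.298), 169 were recovered for DIP2C-/-, 195 for DIP2C+/- and 197 for all clones against parental cells, with 7, 8 and 11 false calls among 14998 genes. The changed genes were drawn only from those above a set mean count, and every gene was given the same spread. Recovery of changes below a log2 of 2, or of changes that H9-A4 lacked, was not tested. Nor was recovery in genes below that count or with a wider spread. With all 9 samples the log2 fold changes of all clones were smaller than 2 in size for 4 of the members that differed. These were CDKN1A (1.54), CDKN1B (-0.68), CDKN1C (-1.80) and CDKN2C (-0.98). The members, lists and the choice to leave out H9-A4 were made with earlier results of these data known. Named are the 7 genes, DIP2C, up to 4 called genes of each list by size of change, the neighbours and the 3 most alike genes, and other genes are marked where they stand as named after their values were seen. The study describes 3 DIP2C+/- clones where the labels list 5, and all 5 were analysed.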

Additional observations from a re-analysis of the deposited data

Results flagged for a closer look

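Among the 5 DIP2C+/- clones, H9-A4 stood apart from the other 4 in 3 of the 7 genes on linear CPM. The measure was the gap to the nearest clone as a share of the whole range. The share was 0.710472 for CDKN1C, where H9-A4 had 5.09 CPM and the next clone 2.31 CPM, a value only just above the 95% critical value for 5 samples. It was 0.747 (0.747383) for CDKN2B, with 3.68 CPM against 9.81 CPM in the next clone. It was 0.744 (0.743563) for CDKN2C, with 14.2 CPM against 7.67 CPM. H9-A4 was the extreme clone in CDKN1A (0.578), CDKN1B (0.661), CDKN2A (0.554) and CDKN2D (0.391) too, with shares below the critical value. Which genes pass depends on the scale, and shares in log2 CPM were not computed. In log2 CPM minus the parental mean, CDKN2A was -2.78 in H9-A4 and 3.11 to 3.95 in the other 4 clones. Its share below the critical value therefore does not mean that H9-A4 was near the other clones in CDKN2A. Chance flags about 1 group in 20, whichever of the 5 clones is the extreme one. Over all 15532 genes tested, H9-A4 passed the same limit in 4.28%. This share counts H9-A4 alone, so it is not to be read against the 1 in 20. DIP2C itself was 56.2 CPM in H9-A4 and 33.6 to 46.9 CPM in the other 4, and its part in these values was not tested.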

How the results depend on the processing

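Clone H9-A4 decided the calls. The members called were 0 in each contrast with all 9 samples. For DIP2C-/-, DIP2C+/- and all clones against parental cells they ranged from 0 to 5 with 1 sample left out, and the 5 came from leaving out H9-A4. DESeq2 called 2 for DIP2C-/- and 1 for all clones, and a fit of only the compared groups, which has no H9-A4, called 5 for DIP2C-/-. With H9-A4 left out, a choice added after seeing the data, DESeq2, scaling by library size only and reads from the step called 5 as well, and leaving out 1 further sample gave 2 to 5 for DIP2C-/-, 2 to 5 for DIP2C+/- and 3 to 5 for all clones. The lowest values came without a parental sample and, for DIP2C-/-, also without E3 or C10. All genes called for DIP2C-/- were 1 with all 9 samples, 295 with DESeq2, 3 with no filter, 0 with at least 10 counts in every sample, 1807 with only the compared groups, and 1 to 733 with 1 sample left out. For DIP2C+/- they were 15, then 191 with DESeq2, 8 with the stricter filter, 8 with only the compared groups, and 1 to 1224 with 1 left out. For all clones they were 28, then 304 with DESeq2, 11 with the stricter filter, and 1 to 1378 with 1 left out. For DIP2C+/- against DIP2C-/- they were 0, then 6 with DESeq2, 1 with only the compared groups, and 0 to 3 with 1 left out. Beyond H9-A4 the cause was not tested.

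Of the members' log2 fold changes under all alternatives, 407 kept direction and call, 23 gained the call (15 without H9-A4, 5 with only the compared groups, 3 with DESeq2) and 14 changed sign, each with 1 sample left out and none called. These were CDKN2B for DIP2C-/- (-0.42 to 0.009998), CDKN2D for DIP2C-/- (-0.51 to 0.58), DIP2C+/- (-0.37 to 0.73), all clones (-0.41 to 0.68) and between genotypes (-0.0813 to 0.32), and between genotypes CDKN2A (-0.74 to 0.0679) and CDKN2B (-0.35 to 0.0797). CDKN2A could not be tested with at least 10 counts in every sample. A prior count of 0.5 in place of 2 left all 49 single clone differences within the spread between clones. For CDKN2A a spread that includes H9-A4 is wide, from -2.78 in H9-A4 to 4.03 in C10 with prior count 2. A shift in that gene could thus hardly leave it. No paired analysis was possible because the groups were not paired by replicate number in the labels. Depth limits CDKN2A in H9-A4, at 3 reads, to an upper bound near 0.262 times the parental libraries.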

Other observations

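The files hold other genes named for CDK inhibitors that are not members of the families, chosen here after their values were seen. CDKN3, a phosphatase that acts on CDKs, was 43.5 and 40.4 CPM in the parental samples, 43.7 CPM in H9-A4 and 24.3 CPM at the lowest in the other 6 clones, and was not called (log2 fold change of all clones -0.48, SE 0.18, edgeR adjusted p = 0.125 without H9-A4). CDKN2AIP, which encodes a binding partner of p14ARF, was 37.7 and 34.2 CPM in the parental samples and 24.5 to 33.2 CPM in all 7 clones, and was not called (log2 fold change -0.29, edgeR adjusted p = 0.291 without H9-A4). CDKN2AIPNL, its homologue, was 23.5 and 17.4 CPM in the parental samples and 17.8 to 27.3 CPM in the clones, so its groups overlapped.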
